A study of Rattus norvegicus with 9 samples.

Results

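Klhl40, Anxa8, Bpifa2, Dcx, Lmcd1, Wipf3 and Iqcd are 7 of the 33539 genes in the deposited rat table. They were chosen because their messenger RNA fell steeply in gels that relax stress fast while the medium gel stayed near or above the slow gel. The values of the same libraries made that choice, so the levels and differences of the 7 genes below are a description, given with standard errors (SE) and without a test. The working name, genes lost in fast gels only, fits in part. All 7 genes were still counted in each Fast library, at 0.652 to 16.8 CPM (counts scaled by library size, here with TMM factors). For Bpifa2 the Medium mean was also below the Slow mean, at 69.9% of it.

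The cells were rat bone marrow mesenchymal stem cells (MSCs, adherent stromal cells able to form bone, fat and cartilage), held for 48 hours in a hydrogel. The 3 groups, Fast, Medium and Slow, differ in how quickly the gel relaxes an imposed stress, and each has 3 polyadenylated RNA libraries. The medium was low glucose DMEM with serum and antibiotics in all groups, and no genotype, sex, age or number of animals is given in the labels. Nothing in the labels says that the libraries of a group came from separate cultures or animals, so p-values measure only the spread between these libraries, which may be technical.

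A gel that relaxes stress yields under the pull of the cells held in it, and the rate of yielding is known to act on spreading, on the actin skeleton and on the fate of stromal cells. The 7 proteins are not known as 1 pathway. They belong to muscle ubiquitin ligase adaptors, calcium-dependent membrane binding, secreted lipid binding, microtubule stabilisation, transcriptional co-regulation, actin assembly and the ciliary axoneme.

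The libraries held 14128980 to 15779328 counts, with 3.21% to 3.78% from mitochondrial genes. Slow replicate 3 stood apart in holding 965 genes counted in no other library, against 126 to 205 such genes elsewhere. Leaving it out moved the log2 difference between Fast and Slow of each of the 7 genes by 0.09 or less. After removal of low counts, 14406 genes were tested in edgeR (quasi-likelihood). At an adjusted p under 0.05 the calls took in 42.9% of them for Fast against Slow, 33% for Fast against Medium (17.3% lower and 15.6% higher in Fast) and 10.3% for Medium against Slow. Of the first calls 49.4% were higher in Fast, a share that became 59.7% under upper quartile scaling and 65.1% on library size alone. The check of cell identity gave stromal markers in every library. Of 14 stromal markers, all tested, 7 were called higher and 4 lower in Fast than in Slow, with a median of 0.12. Among those with the smallest adjusted p, Cxcl12 rose by 2.27 on the log2 scale (adjusted p = 4.99e-16). Pdgfra rose by 0.93 and Pdgfrb by 0.84 (adjusted p = 4.23e-12 for each), and Nt5e (CD73) fell by 1.65 (adjusted p = 1.51e-13). The summed level of the 14 markers was 44563 to 48827 in Fast, 37829 to 38547 in Medium and 33614 to 34018 in Slow. It is in CPM without TMM factors, as for all marker sums. Myeloid markers moved as well: 13 of 17 were called higher in Fast than in Slow and 2 lower, and their sum was 3175 to 3334 CPM in Fast, 2117 to 2130 in Medium and 1797 to 1859 in Slow. Their part in the low levels of the 7 genes was not tested. In bulk libraries, fewer cells that make a transcript and less transcript per cell cannot be told apart.

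In all 7 genes the 3 Fast libraries lay below the 6 others with no overlap. Among all tested genes 18.1% did the same, and as the genes were chosen on this contrast nothing is read from their count. Medium and Slow did not overlap in 5 of the 7 genes, as in 29.5% of tested genes. The median log2 difference of the 7 genes was -2.60 for Fast minus Slow, -2.89 for Fast minus Medium and 0.29 for Medium minus Slow, while the medians over all tested genes were 0.01, 0.01 and 0.00. No single Fast library carried the low values: replicate 1 was the lowest for 3 of the genes, replicate 2 for 2 and replicate 3 for 2. Per transcript length, the Slow levels ran in the order Lmcd1 at 60.4 FPKM (counts scaled by library size and gene length), Bpifa2 at 14.6, Klhl40 at 7.16, Iqcd at 5.14, Anxa8 at 3.70, Wipf3 at 1.92 and Dcx at 0.731. Neighbours in that order differed by more than the sum of their SDs, the closest pair being Iqcd at 5.14 ± 0.691 and Anxa8 at 3.70 ± 0.391 FPKM (SD, n = 3). Their Fast levels ran from 0.12 FPKM for Dcx to 8.78 FPKM for Lmcd1.

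**Figure D1:**
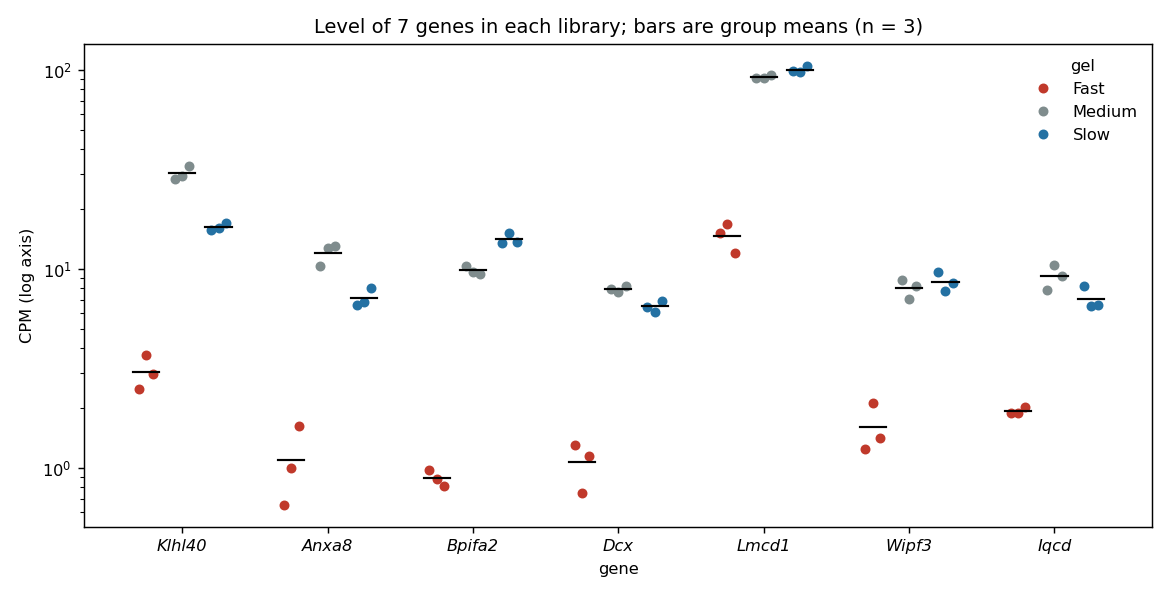
Level of the 7 genes in CPM on a log axis, with 1 point per library and a bar at the mean of each group (n = 3). Every Fast point lies below every Medium and Slow point of its gene, while Medium and Slow overlap for Wipf3 and Iqcd and not for the other 5 genes.

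Klhl40 encodes a kelch protein that serves as substrate adaptor of the Cul3 ubiquitin ligase, and in mouse muscle it stabilises the thin filament proteins nebulin and leiomodin 3. In the table it lies on chromosome 8 from 130416355 to 130421871 on the plus strand. Its level was 2.48, 3.69 and 2.98 CPM in the Fast libraries, 28.4, 29.3 and 33.0 CPM in Medium and 15.8, 16 and 17.1 CPM in Slow. The 3 groups did not overlap, and the order was Fast, Slow, Medium. The Fast mean of 3.05 ± 0.61 CPM (SD, n = 3) was 18.7% of the Slow mean and 10.1% of the Medium mean. The log2 difference was -2.41 ± 0.13 (SE) for Fast minus Slow, -3.30 ± 0.12 for Fast minus Medium and 0.89 ± 0.10 for Medium minus Slow. Klhl40 had the highest Medium level relative to Slow among the 7 genes, at 185% of it.

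The promoter of Klhl40 is shown because its last 250 bases before the start held a pair of AP-1 matches and a MEF2 match, MEF2 being a factor of muscle transcription. The sequence is from RefSeq on GRCr8, chr8:130318543-130318792, plus strand, 5′ to 3′, with the matches in capitals.
Klhl40: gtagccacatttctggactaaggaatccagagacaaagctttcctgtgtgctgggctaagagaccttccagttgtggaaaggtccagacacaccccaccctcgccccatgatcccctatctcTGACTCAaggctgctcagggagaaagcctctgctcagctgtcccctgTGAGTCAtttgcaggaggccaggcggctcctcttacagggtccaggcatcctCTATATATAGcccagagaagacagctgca
The AP-1 letters TGANTCA, read on both strands, occurred in 6.34% of the 33469 windows of this length before RefSeq starts, and 0.311% held at least 2 of them. In Klhl40 they lay 128 to 122 and 81 to 75 bases before the start. The MEF2 motif occurred in 2.96% of the windows and lay 29 to 20 bases before the start. A match is a run of letters and not a measured site.

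For genes other than the 7, a rise or fall is Fast against Slow on the log2 scale unless another comparison is named. Klhl41, the nearest muscle paralog of Klhl40, fell by 0.56 (adjusted p = 5.75e-05 in edgeR). Cul3, the ligase scaffold, differed by -0.15 (adjusted p = 0.0647), and nebulin, Neb, by 0.34 (adjusted p = 0.317). Lmod3 was below the limit for testing, with 0 to 12 counts a library. Of 39 other tested genes in the kelch and BTB list, which also holds Cul3 and Rbx1, 7 were called lower and 8 higher in Fast than in Slow. The median was 0.06. The background was 21.7% of all tested genes lower and 21.2% higher. With library size alone as the scale, 6 were lower and 14 higher, and 5 were higher when Fast replicate 1 or Slow replicate 2 was left out. Among those with the smallest adjusted p, Klhl21 fell by 0.95, Klhl2 by 0.55 and Klhl26 by 0.55, and Klhl8 rose by 0.90. Klhl6, with a larger adjusted p of 6.95e-05, rose by 1.83, with 63 to 78 counts in Fast and 17 to 19 in Slow.

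Skeletal muscle markers were scarce in every group. Their summed level was 28.8 to 33.6 CPM in Fast, 29.9 to 34.7 in Medium and 29.2 to 30.3 in Slow, and Lmod2 and Pax7 were at 0 in all 9 libraries. Myog, which drives muscle differentiation, had 0 to 2 counts a library. Of 13 tested muscle genes 2 were called lower and 2 higher in Fast than in Slow. The fast myosin heavy chain Myh1 fell by 1.59 (adjusted p = 0.000108), with 17 to 34 counts in Fast, 62 to 65 in Medium and 60 to 84 in Slow. The slow troponin T gene Tnnt1 rose (adjusted p = 0.000949), with 12 to 27 counts in Fast, 3 to 13 in Medium and 1 to 3 in Slow. The calls of Myl1 and Actn2 were lost when single libraries were left out, with adjusted p up to 0.132 for each.

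Hhatl, a relative of the hedgehog acyltransferase, moved beside Klhl40. Its annotated span begins 195 bases from that of Klhl40, on the opposite strand, so that the 3′ ends face each other. It had 7, 4 and 5 counts in the Fast libraries, 39, 45 and 51 in Medium and 39, 36 and 36 in Slow. Fast lay below all other libraries, and Medium and Slow overlapped. The log2 difference was -2.84 ± 0.31 for Fast minus Slow (SE, adjusted p = 4.01e-06) and -3.14 ± 0.31 for Fast minus Medium (adjusted p = 1.81e-06). It was 0.30 ± 0.24 for Medium minus Slow (adjusted p = 0.518). Whether reads were counted by strand is not given in the sources used here, so reads that run past either 3′ end may have been given to the other gene. Zbtb47, a zinc finger gene 9.36 kb away on the other side, fell by 0.46 (adjusted p = 0.000464).

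**Figure D2:**
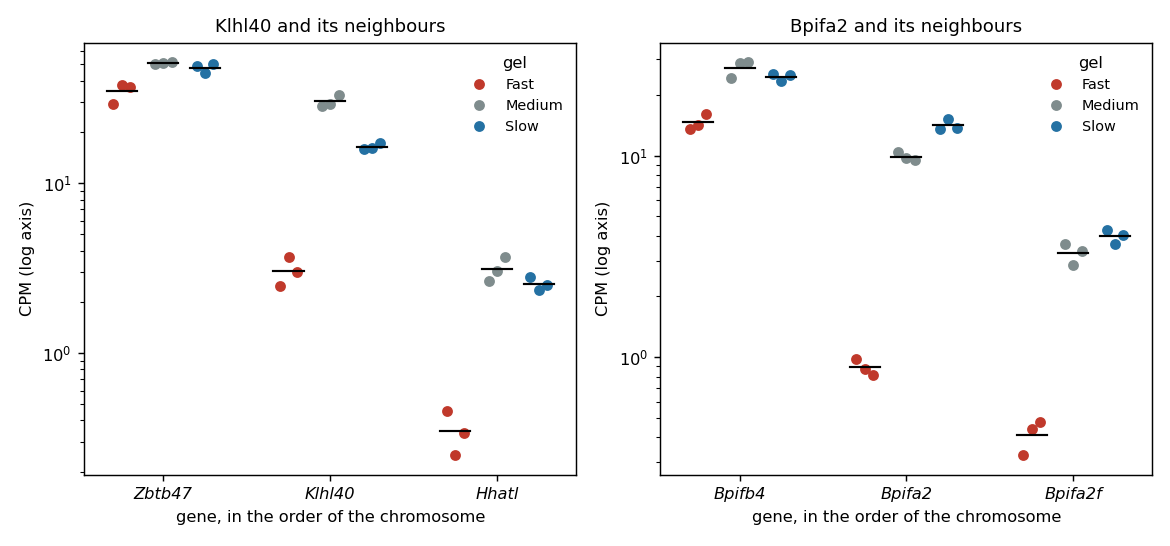
Levels in CPM on a log axis for Klhl40 with the tested genes on either side (left) and for Bpifa2 with those on either side (right), 1 point per library and a bar at the mean of each group (n = 3). Hhatl and Bpifa2f have Fast means of 0.348 and 0.412 CPM which are 13.7% and 10.4% of their Slow means, and Zbtb47 and Bpifb4 are at 72.6% and 59.4% of theirs.

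Bpifa2, the parotid secretory protein of the mouse, is a secreted member of the BPI fold family, whose proteins bind lipids and bacterial lipopolysaccharide. It lies on chromosome 3 from 149493655 to 149501613 in the table, on the plus strand. Its level was 0.978, 0.876 and 0.812 CPM in Fast, 10.4, 9.71 and 9.47 CPM in Medium and 13.5, 15.1 and 13.7 CPM in Slow. The groups did not overlap and followed the order of the gels, Fast, Medium, Slow. The Fast mean of 0.888 ± 0.0835 CPM (SD, n = 3) was 6.31% of the Slow mean, the deepest fall of the 7 genes against Slow and rank 11 among all tested genes. The log2 difference was -3.97 ± 0.15 for Fast minus Slow, -3.46 ± 0.16 for Fast minus Medium and -0.52 ± 0.12 for Medium minus Slow.

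Bpifa2f, a neighbouring paralog that RefSeq also lists as Smgb, changed with Bpifa2. It lies 23.1 kb away in the table. The Fast libraries held 5, 7 and 7 counts of it, those of Medium 53, 42 and 47, and those of Slow 60, 56 and 58. Fast lay below all other libraries. The difference was -3.24 ± 0.27 for Fast minus Slow (adjusted p = 1.62e-07) and -2.97 ± 0.27 for Fast minus Medium (adjusted p = 7.22e-07). The counting of reads shared by near-identical copies is not given in the sources used here, so the split of reads between both genes is uncertain. Bpifb4, a family member 44.3 kb on the other side, fell by 0.75 (adjusted p = 1.05e-05). The other 2 tested relatives went the other way: Lbp, which binds lipopolysaccharide, rose by 0.35 and Pltp, which transfers phospholipids, rose by 0.67 (adjusted p = 4.77e-08 and 8.80e-09). Among the 4 tested relatives, 2 were thus lower and 2 higher, with a median of -0.20.

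The promoters of Bpifa2 and Bpifa2f are shown together because both genes fell and the sequences are alike. Both are from RefSeq on GRCr8, plus strand, 250 bases before the start, at chr3:162953288-162953537 and chr3:162981164-162981413. Capitals mark the TATA box letters TATAAA, the TEAD letters GGAATG and the CCAAT box on either strand, and in Bpifa2 the TATA and TEAD letters stand side by side.
Bpifa2: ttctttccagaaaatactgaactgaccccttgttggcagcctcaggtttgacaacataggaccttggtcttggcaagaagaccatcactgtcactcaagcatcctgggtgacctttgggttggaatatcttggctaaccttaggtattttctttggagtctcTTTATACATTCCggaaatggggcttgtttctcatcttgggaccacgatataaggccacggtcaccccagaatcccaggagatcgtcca
Bpifa2f: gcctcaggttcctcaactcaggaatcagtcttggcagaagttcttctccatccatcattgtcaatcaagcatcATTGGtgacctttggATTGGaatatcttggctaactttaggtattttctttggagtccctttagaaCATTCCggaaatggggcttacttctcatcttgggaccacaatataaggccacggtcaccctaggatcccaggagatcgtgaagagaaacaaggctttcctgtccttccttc
A global alignment placed 210 bases side by side, of which 186 were identical (88.6%), with 80 bases in gaps. The TEAD letters lay 82 to 77 bases before the start in Bpifa2 and 111 to 106 in Bpifa2f, and occurred in 12.1% of all windows. TATAAA occurred in 12.9% and CCAAT in 34% of them.

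Anxa8 encodes an annexin, a protein that binds phospholipid membranes when calcium is present. It lies on chromosome 16 from 10417185 to 10432393 in the table, on the plus strand. Its level was 0.652, 1.00 and 1.62 CPM in Fast, 10.4, 12.8 and 13 CPM in Medium and 6.63, 6.81 and 8.05 CPM in Slow. The groups did not overlap, and Medium was the highest. The Fast libraries rest on 10, 16 and 24 counts, 50 in all with an exact 95% Poisson interval of 37.1 to 65.9, which covers counting error only. The log2 difference was -2.71 ± 0.24 for Fast minus Slow, -3.46 ± 0.24 for Fast minus Medium and 0.75 ± 0.19 for Medium minus Slow. With a variation between replicates of 14.9% (biological coefficient of variation, against a median of 7.54% over tested genes), Anxa8 was the most variable of the 7 genes.

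The annexin family did not move as a block. Of 8 other tested annexins, 4 were called lower in Fast than in Slow and 3 higher, and the median was -0.18. Upper quartile scaling and library size alone gave the same counts. Anxa1, known for its anti-inflammatory action, was at 598, 560 and 556 CPM in Fast, 1354, 1352 and 1347 CPM in Medium and 1465, 1413 and 1407 CPM in Slow. Its Fast libraries lay below the rest by -1.32 ± 0.029 against Slow (adjusted p = 8.59e-14), and Medium did not pass the test against Slow (-0.08, adjusted p = 0.0976). Anxa2 fell by 0.55, Anxa5 by 0.34 and Anxa7 by 0.31. Anxa3 rose by 0.90, Anxa6 by 0.60 and Anxa4 by 0.25, and Anxa11 differed by -0.05 (adjusted p = 0.356). S100a10, the partner of Anxa2 at the membrane, fell by 0.70 (adjusted p = 9.08e-09), within a list of 9 S100 genes of which 3 were lower and 4 higher. In that list S100b fell by 0.39 and S100a6 by 0.36, and S100a8 rose by 1.18, S100a1 by 0.83, S100a13 by 0.66 and S100a4 by 0.18. Epithelial genes, among which Anxa8 is known, were nearly absent: Krt5, Krt14 and Krt19 were at 0 in all libraries, and the summed level of the list was 16.9 to 18.9 CPM in Fast, 10.3 to 14.7 in Medium and 10.4 to 12.7 in Slow. Among its 5 tested genes Tp63 rose by 3.72 (adjusted p = 1.18e-06) with 80 to 88 counts in Fast, 11 to 21 in Medium and 2 to 10 in Slow. Krt8 rose by 0.88 and Esrp2 fell by 1.56.

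**Figure D3:**
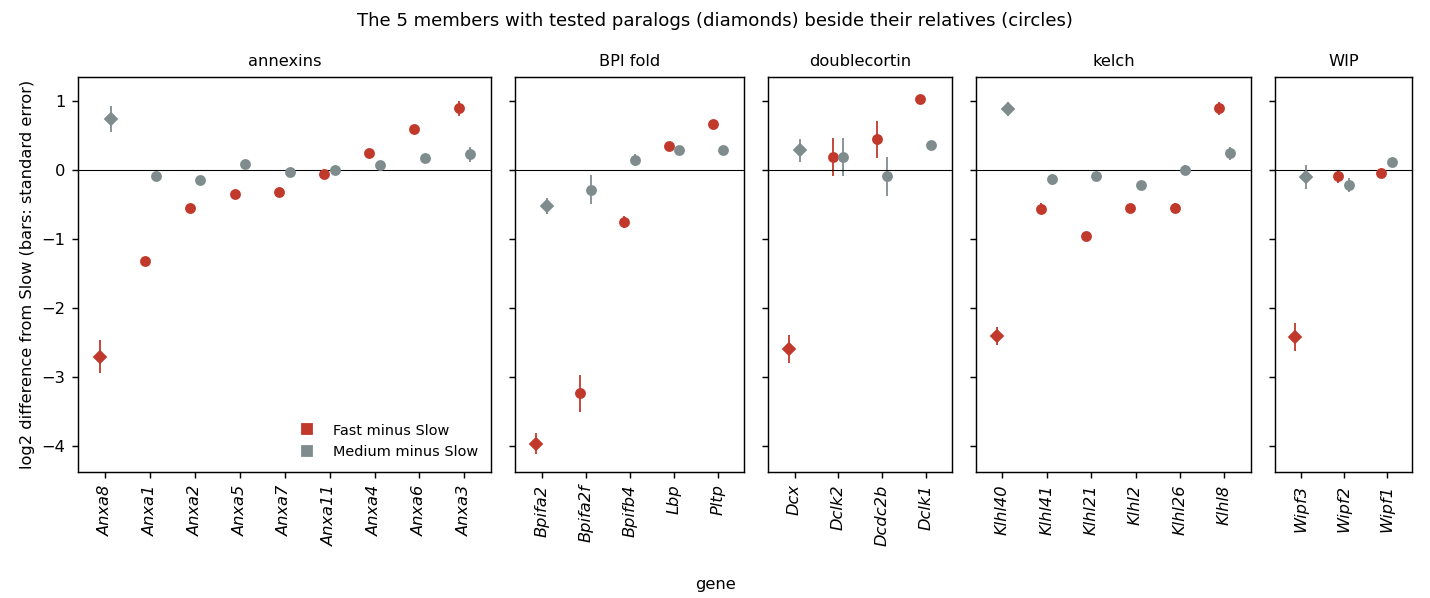
Log2 difference from Slow for Fast (red) and Medium (grey), with standard errors, for 5 of the 7 genes (diamonds) beside tested relatives (circles), grouped by family. Bpifa2f at -3.24 is the relative closest to its family's diamond, and Dclk1 and Klhl8 lie above 0 in Fast, at 1.04 and 0.90. The kelch panel draws only Klhl41 and the relatives with the smallest adjusted p. Of the 39 other tested genes in the kelch list, 7 were called lower and 8 higher in Fast than in Slow.

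Dcx encodes doublecortin, which binds and stabilises microtubules in migrating young neurons. It lies on the X chromosome from 115098675 to 115175299 in the table, on the minus strand. Its level was 1.30, 0.751 and 1.15 CPM in Fast, 7.91, 7.67 and 8.25 CPM in Medium and 6.42, 6.10 and 6.94 CPM in Slow. The groups did not overlap, and Medium was the highest. The log2 difference was -2.60 ± 0.20 for Fast minus Slow, -2.89 ± 0.20 for Fast minus Medium and 0.29 ± 0.17 for Medium minus Slow. The gene is long (8827 bases in the table), and its level per length was the lowest of the 7. Fast was at 0.12 ± 0.0322 FPKM, Medium at 0.895 ± 0.0317 and Slow at 0.731 ± 0.0459 (SD, n = 3). Its CPM means in Medium and Slow, 7.94 and 6.49, were also the lowest of the 7 without scaling by length.

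Of 3 other tested doublecortin genes, 0 were called lower in Fast than in Slow, also at an unadjusted p under 0.05 in edgeR and with DESeq2 or limma-voom. Dclk1, a kinase with the same microtubule-binding domain, was at 98.9, 93.1 and 90.8 CPM in Fast, 60.6, 58.9 and 58.9 CPM in Medium and 48.2, 43.5 and 46.2 CPM in Slow. Its groups did not overlap, with Fast the highest and Slow the lowest. It rose by 1.04 against Slow (adjusted p = 5.45e-10) and by 0.66 against Medium (adjusted p = 1.05e-07). Dclk2 and Dcdc2b differed by 0.19 and 0.45 (adjusted p = 0.623 and 0.195). Of 16 microtubule regulators 5 were lower and 3 higher in Fast than in Slow, with a median of -0.06. With library size alone 4 were lower and 6 higher, and without Fast replicate 1 there were 5 higher. The microtubule-associated genes Map6 and Map1a fell by 0.66 and 0.50, the dynein regulator Ndel1 by 0.41, and Map4 rose by 0.40. With larger adjusted p, Stmn1 rose by 0.86 and Map1b fell by 0.44 (adjusted p = 2.69e-06 and 2.84e-06 in edgeR). Pafah1b1, which acts with dynein in neuronal migration, differed by -0.08 (adjusted p = 0.0955). Neural markers, with Dcx itself among them, gave a summed level of 168 to 177 CPM in Fast, 204 to 214 in Medium and 169 to 174 in Slow. Most of it came from Ncam1 and S100b, in Fast at 72 to 83.7 and 72.5 to 77.8 CPM with TMM factors. Elavl4, Neurod1 and Rbfox3, which define neurons, were at 0 in all libraries. Of 5 other tested neural markers, S100b fell, and Ncam1 and Snap25 rose by 0.44 and 0.97 against Slow.

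Lmcd1 encodes a LIM and cysteine-rich domain protein that in mouse heart restrains GATA6 and takes part in calcineurin signalling. It lies on chromosome 4 from 144192989 to 144252551 in the table, on the plus strand, and was the most abundant of the 7 genes. Its level was 15.1, 16.8 and 12.1 CPM in Fast, 91.7, 90.8 and 94.7 CPM in Medium and 99.4, 97.7 and 105 CPM in Slow. Medium and Slow did not overlap but lay within 0.12 of each other on the log2 scale. With 680 counts over the Fast libraries its difference had the smallest SE, at -2.77 ± 0.08 for Fast minus Slow, -2.65 ± 0.08 for Fast minus Medium and -0.12 ± 0.066 for Medium minus Slow. Its variation between replicates, 1 estimate for the 3 groups together, was 4.89%, the lowest of the 7. Relative to the mean, its spread was larger in Fast, at 14.7 ± 2.39 CPM (SD, n = 3). Medium was at 92.4 ± 2.05 CPM and Slow at 101 ± 3.82 CPM.

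The promoter of Lmcd1 is shown because it held the letters of a full cAMP response element. It is from RefSeq on GRCr8, chr4:146948743-146948992, plus strand, 5′ to 3′, with TGACGTCA and the CCAAT letters in capitals.
Lmcd1: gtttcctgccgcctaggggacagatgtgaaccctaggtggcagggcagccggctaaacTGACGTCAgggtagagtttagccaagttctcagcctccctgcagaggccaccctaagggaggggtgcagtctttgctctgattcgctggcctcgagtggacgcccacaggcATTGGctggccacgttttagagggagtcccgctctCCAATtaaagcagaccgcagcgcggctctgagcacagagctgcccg
TGACGTCA, a palindrome, occurred in 1.59% of all windows and lay 192 to 185 bases before the start. The CCAAT letters lay 81 to 77 and 46 to 42 bases before it, on opposite strands. Among the 7 windows searched no motif was in more than 2 of them. Those of Anxa8, Dcx, Wipf3 and Iqcd do not begin at the outermost annotated start, and that of Dcx lies 66130 bases from it. Matches before other starts of these genes were not searched. The letters TGACNNNGC, the CArG box and the NF-kB motif were in none of the 7 windows, against 10.1%, 1.5% and 4.24% of all windows. GGGCGG was in the window of Wipf3 alone and in 30.5% of all windows.

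Over all tested genes, 21.7% were called lower in Fast than in Slow and 21.2% higher. In the list of calcineurin, NFAT and GATA genes, edgeR called 5 of 15 tested genes lower and 0 higher, with a median of -0.10. At an unadjusted p under 0.05 the count higher was 1 in edgeR, 0 in DESeq2 and 2 in limma-voom. At the adjusted threshold it was 0 in DESeq2 and in limma-voom, and 2 in edgeR with library size alone. Nfatc2, a transcription factor that calcineurin sends to the nucleus, was at 1.37, 1.31 and 1.22 CPM in Fast, 5.87, 5.97 and 5.81 CPM in Medium and 4.92, 4.93 and 5.62 CPM in Slow. The groups did not overlap, and the difference was -1.98 ± 0.19 for Fast minus Slow (adjusted p = 7.17e-07) and 0.19 ± 0.16 for Medium minus Slow. Rcan1, an inhibitor of calcineurin that is itself an NFAT target, fell by 0.53 (adjusted p = 5.98e-06). Nfat5 fell by 0.33 and the calcineurin subunit Ppp3r1 by 0.25. Gata6 had 2 to 10 counts a library and was not tested. Among 39 other LIM domain genes 15 were lower and 10 higher with a median of -0.08, and with library size alone 8 were lower and 11 higher. Crip2 fell by 1.16 and Pdlim4 by 0.55, while Limch1 rose by 1.91 and Lima1 by 0.50.

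Wipf3 encodes a member of the WIP family, proteins that bind actin and hold N-WASP, an activator of the Arp2/3 complex. It lies on chromosome 4 from 84597323 to 84676775 in the table, on the plus strand. Its level was 1.24, 2.13 and 1.42 CPM in Fast, 8.80, 7.06 and 8.25 CPM in Medium and 9.70, 7.72 and 8.47 CPM in Slow. Fast lay apart, and Medium and Slow overlapped. The log2 difference was -2.42 ± 0.20 for Fast minus Slow, -2.32 ± 0.20 for Fast minus Medium and -0.10 ± 0.17 for Medium minus Slow. Both paralogs gave small differences between Fast and Slow that did not pass the test, -0.04 ± 0.056 for Wipf1 and -0.09 ± 0.099 for Wipf2 (SE, adjusted p = 0.554 and 0.482). Wasl, which encodes N-WASP, differed by -0.10 (adjusted p = 0.159). Wipf1 was 0.16 lower in Fast than in Medium (adjusted p = 0.0343), a call lost without any 1 of the 3 Fast libraries, with adjusted p up to 0.218 over all alternatives.

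Across the actin branching machinery of 36 other tested genes, 11 were called lower in Fast than in Slow and 6 higher, with a median of -0.09. With library size alone 8 were lower and 8 higher, and without Fast replicate 3 or Slow replicate 3 only 3 were higher. Arpc2, a core subunit of Arp2/3, fell by 0.50 (adjusted p = 6.29e-10) and the adaptor Nck2 by 0.64. Gmfg, which detaches Arp2/3 branches, rose by 1.10, and Nckap1l, the WAVE subunit of blood cells, by 0.77.

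Iqcd encodes a calmodulin-binding subunit of the nexin-dynein regulatory complex, which links the microtubule doublets of motile cilia. It lies on chromosome 12 from 41490801 to 41497610 in the table, on the minus strand. Its level was 1.89, 1.88 and 2.03 CPM in Fast, 7.84, 10.5 and 9.25 CPM in Medium and 8.20, 6.49 and 6.59 CPM in Slow. Fast lay apart and Medium and Slow overlapped. It had the shallowest fall of the 7, with a log2 difference of -1.87 ± 0.18 for Fast minus Slow, -2.25 ± 0.18 for Fast minus Medium and 0.38 ± 0.16 for Medium minus Slow. Of 10 other tested genes in the list of axoneme genes and ciliary factors, 4 were higher in Fast than in Slow and 1, Rfx2, was lower, with a median of 0.28. The subunit Ccdc65 rose by 0.48 (adjusted p = 0.0168, up to 0.0646 when single libraries were left out). Gas8, another subunit, differed by 0.14 (adjusted p = 0.513), and the ciliary factor Rfx2 fell by 0.66 (adjusted p = 0.00589). The subunit Tcte1 rose by 2.09 and Rsph9 by 0.75, both calls lost without Slow replicate 3. Dnah5, Rsph4a and Spag16, parts of motile cilia, were at 0 in all libraries.

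The pattern that defines the 7 genes was uncommon in the table. When it was written as a call and at least a 2-fold lower level in Fast than in both other gels, with Medium no more than 0.2 below Slow on the log2 scale and a mean of at least 10 counts, 138 genes met it, 0.958% of those tested. At that fold and call 3.23% of tested genes were lower in Fast than in Slow and 2.38% lower than in Medium. They included 6 of the 7 genes, and Bpifa2 was outside through its Medium level of -0.52. With that mean count, 448 genes were called and at least 2-fold lower in Fast than in Slow. Of these, 38.2% were called lower in Medium than in Slow as well (5.57% of all tested genes were). Another reading of the same genes is that 34.8% had Medium no more than 0.2 below Slow. Both comparisons use the same Slow libraries, so genes high there by chance enter both, and the 38.2% may be too high beside 5.57%. In the 4-fold version 24 genes remained, with Klhl40, Anxa8, Dcx, Lmcd1 and Wipf3 among them.

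**Figure D4:**
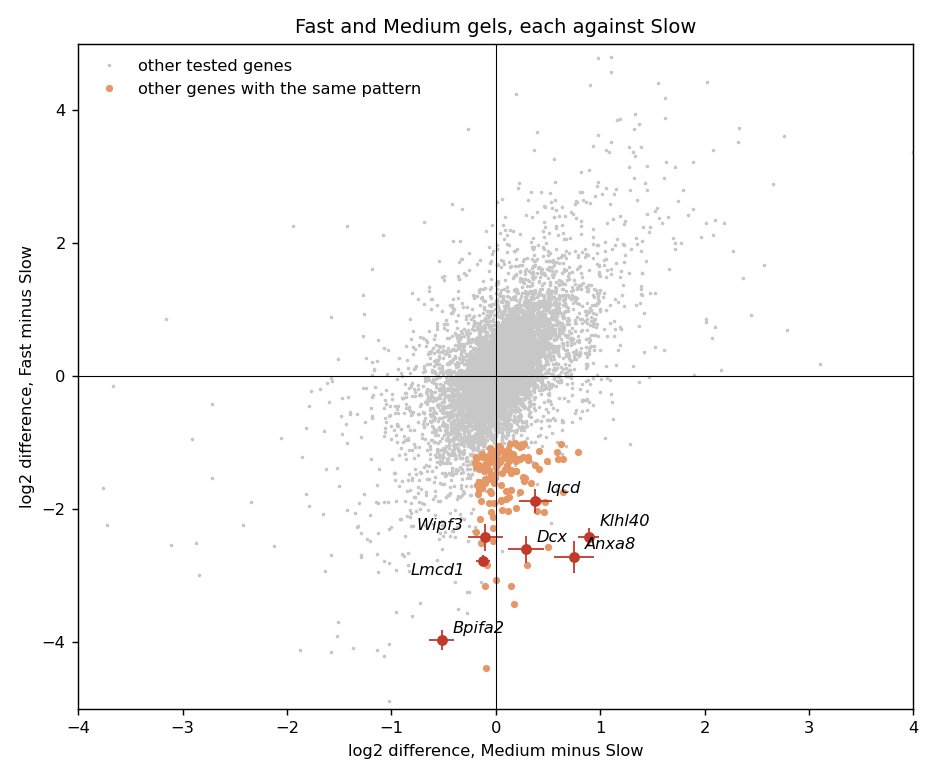
Log2 difference of Fast against that of Medium, both from Slow, for tested genes (grey; 10 of 14406 lie beyond the axes), the genes with the written pattern (orange) and the 7 genes with standard errors (red). Klhl40 and Anxa8 lie farthest to the right among the 7, at 0.89 and 0.75, and Bpifa2 lies to the left at -0.52.

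The 10 other pattern genes with a gene symbol that is not a placeholder such as a LOC number, a mean of at least 50 counts and the steepest fall in Fast against Slow were also described. Xcl1, a chemokine, had Fast, Medium and Slow means of 1.23 ± 0.488, 10.4 ± 0.334 and 7.35 ± 0.671 CPM (SD, n = 3). Ankh, a membrane protein that releases pyrophosphate and restrains mineralisation, was the most abundant of them, at 229 ± 7.89, 909 ± 5.94 and 943 ± 8.81 CPM. Fgf1, a growth factor, was at 12.3 ± 2.05, 49.0 ± 0.833 and 54.4 ± 2.75 CPM. The others were Kcng1 and Scn7a, which are channel subunits, the metallothionein Mt3, Nfatc2, the transcription cofactor Lbh, the nuclear receptor Nr4a3 and the oxidase Duox2. Their Fast minus Slow differences ran from -2.57 for Xcl1 to -1.85 for Duox2.

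Likeness of pattern was measured as the root mean square distance between log2 CPM profiles, centred on their means over the 9 libraries. The search took in named genes outside the 7 with a mean of at least 50 counts, so Bpifa2f and Hhatl were not in it. Within it, Xcl1 was nearest to both Klhl40 (0.228) and Anxa8 (0.296), and those 2 were at 0.281 from each other. Kcng1 was nearest to Wipf3 (0.183), Nfatc2 to Iqcd (0.18), F13a1 to Dcx (0.335) and Sez6l to Lmcd1 (0.30). For Bpifa2 the search gave Tslp (0.556) and Il11 (0.564), cytokine genes whose Medium minus Slow differences were -1.51 and -0.84. Among the 7, Lmcd1 and Wipf3 were the most alike (0.261) and Bpifa2 and Iqcd the least (0.84). Lmcd1 was thus nearer to Wipf3 than to Sez6l. Dcx and Bpifa2 were each nearer to Lmcd1 (0.309 and 0.437) than to any gene of the search. With Pearson correlation in place of distance, which leaves out the size of the fall, no gene was named again for the same one of the 7. The 14 choices by distance held 10 different genes, and 1 of them, Nqo1, was also chosen by correlation, for Bpifa2.

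The tested genes on either side of the 7 were counted as a check on position. No annotated gene in the table overlapped any of the 7. Of the 14 neighbours, 7 were called lower and 2 higher in Fast than in Slow, and 8 lower and 0 higher in Fast than in Medium, with medians of -0.36 and -0.70. Over all tested genes the shares were 21.7% lower and 21.2% higher against Slow, and 17.3% and 15.6% against Medium. Of the 2 higher calls, that of Capn6 (adjusted p = 0.0394) was lost in 11 of 18 alternatives. Among the lower calls, that of Mapk8 against Slow (adjusted p = 0.0188) was lost in 4 of 18. A pseudogene 94.3 kb from Dcx was called lower against Medium at an adjusted p of 0.0496. The count of 0 was 1 at an unadjusted p under 0.05 in edgeR, and 0 with DESeq2 and limma-voom. Apart from Hhatl and Bpifa2f none fell by more than 1.00 against Slow, the value of an unnamed locus 10.1 kb from Iqcd. Capn6, 24.8 kb from Dcx, was highest in Medium, 1.53 above Slow and 1.09 above Fast on the log2 scale. Scrn1, 2.2 kb from Wipf3, rose by 0.35 in Fast against Slow, and Rita1, 1.92 kb from Iqcd, differed by -0.29 (adjusted p = 0.0538). Edem1, called lower in both comparisons, lay 3277 kb from Lmcd1, and Mapk8 lay 708 kb from Anxa8. Cav3 beside Lmcd1, Fam35a beside Anxa8 and Prr15 beside Wipf3 lay 115 kb or more away.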

How the data were processed

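A single deposited table held all 9 libraries, 3 for each gel. Per the file headers the authors gave read counts per gene, and they also deposited FPKM values, which equalled the count over gene length and a constant of 0.9757 to 1.045 times the library's total. The authors' deposited log2 fold changes and p-values, whose test is not given in the sources used here, were not used, nor were their normalized means per group. Per the submitters' processing notes the tools were Bowtie 0.12.9, Cufflinks 2.1.1 and HTSeq, with no roles stated, and the build mm10 is named although the identifiers are rat Ensembl ones. Gene positions are therefore those of the deposited table, on a build not given here, and whether counting used strand is not given either. Promoter positions are on GRCr8 from RefSeq and were not mixed with them.

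Counts were filtered with filterByExpr (minimum count 10), scaled with TMM and fitted in 1 edgeR 4.0.16 quasi-likelihood model of the 3 groups in R 4.3.3, with Benjamini-Hochberg adjustment over 14406 genes at 0.05. SE is the log2 difference over the square root of F. The same code was tested on simulated counts. The alternatives were DESeq2 1.42.0, limma 3.58.1 on voom weights or on log2(FPKM + 1) and log2(FPKM + 0.1), other scalings, no filter, a replicate block and each library left out. The 15 gene lists hold families, partners and markers, and the 7 genes, the lists and the written pattern were chosen with earlier results of these data known. The naming rule took the 7 genes, 2 nearest genes for each by pattern, the 10 steepest pattern genes and the nearest tested genes on both sides. From each list it took up to 4 called genes, with direct paralogs and partners. Most second nearest genes and the myeloid markers it gave are not printed by name. Some called list genes outside it, such as Klhl6 and Stmn1, are printed. Lists were described by counts and medians without a set test. At 14128980 to 15779328 counts a library, a gene with 10 counts carries a large counting error, and the intervals cover that error only. Motifs were searched on both strands of the 250 bases before the start, for which all 7 genes matched RefSeq. The windows of Anxa8, Dcx, Wipf3 and Iqcd do not begin at the outermost annotated start and are not shown.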

Additional observations from a re-analysis of the deposited data

How the results depend on the processing

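No log2 difference of the 7 genes changed sign in any of the 18 alternatives run for each of the 3 comparisons. Over the alternatives based on counts, Fast minus Slow stayed between -3.10 and -2.45 for Anxa8 and between -4.05 and -3.89 for Bpifa2. On log2(FPKM + 1) it shrank to -0.63 for Dcx and -1.11 for Wipf3, where the added 1 is large beside the level. The number of genes with the written pattern, 138, became 65 on log2(FPKM + 1), 24 at 4-fold, 81 with Medium at or above Slow and 203 with Medium no more than 0.5 below Slow. Of the 7 genes 6 met it, and 5, 5, 4 and 6 met those versions. It was 125 to 140 when single libraries were left out, with 127 without Slow replicate 3. For the same one of the 7 genes, the nearest genes by distance and by Pearson correlation shared 0 of 14 choices. Calls numbered 6177 between Fast and Slow, 4750 between Fast and Medium and 1485 between Medium and Slow. With the replicate numbers as a block they were 6111, 4643 and 1397, with 135 pattern genes, but deviations of same-numbered libraries correlated at -0.114 to 0.0665 over 11495 genes and 2 of 9 libraries were closest to their own number, so the numbers were not taken as pairing. Of 159 calls for 86 other genes from the lists, the neighbours and the pattern, 140 held in every alternative. The rest were lost in at least 1, mostly small Medium against Slow differences and muscle or axoneme genes with few counts. Depth limits the Fast values of Anxa8, Bpifa2 and Dcx, which rest on 50, 41 and 49 counts.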

Other observations

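The opposite pattern, at least 2-fold higher in Fast than in both other gels with Medium no more than 0.2 above Slow on the log2 scale, was met by 126 genes. Cxcl12, the chemokine that holds blood stem cells in the marrow, had Fast, Medium and Slow means of 918 ± 26.8, 185 ± 2.62 and 191 ± 3.67 CPM (SD, n = 3). Sfrp1, a secreted inhibitor of Wnt signalling, was at 161 ± 3, 45.1 ± 1.66 and 41.2 ± 3.49 CPM in that order. Trem2, a receptor of macrophages and osteoclasts, was at 34.4 ± 2.37, 10.5 ± 0.58 and 9.13 ± 1.05 CPM. Chi3l1, a secreted chitinase-like protein, was at 9.01 ± 0.463, 1.48 ± 0.372 and 1.47 ± 0.348 CPM. Rrad, a small GTPase, was at 22.4 ± 2.31, 4.27 ± 0.107 and 5.42 ± 1.03 CPM. Fam50a and Rbm39 met the rule too, but their Fast values varied widely, at 13.4 ± 10.3 and 19.2 ± 18.8 CPM. These genes were picked by their values, so they are given without a test.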
